A study of Saccharomyces cerevisiae with 40 samples.

Results

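The HXT genes of Saccharomyces cerevisiae encode the hexose transporters of the plasma membrane. The 10 genes described here are HXT1, HXT2, HXT3, HXT4, HXT5, HXT6, HXT7, HXT9, HXT11 and HXT12. They were listed by name, with earlier results of these data known, so they do not stand for the whole family. They were matched through the gene symbols of the probe annotation, and each had a probe on both kinds of array. The cDNA arrays held 5540 genes in all and the Agilent arrays 5598. The parent strain was the haploid BY4741 (MATa, with his3Δ, leu2Δ0, met15Δ0 and uraΔ0 alleles). Cells grew in synthetic complete medium, and all deletion strains had the same background. On the cDNA arrays, parent cells treated with arsenite (AsIII, as NaAsO2) at 1 mM for 30 min (2 culture pairs) or at 100 μM for 30 min, 2 h or 4 h (1 culture pair each) were set against the untreated part of the same culture. On the Agilent arrays, arr1Δ, rpn4Δ, yap1Δ and cad1Δ (the nulls of ARR1, RPN4, YAP1 and CAD1, 1 strain each) and the parent were treated at 100 μM for 2 h and set against the same strain without AsIII, and each untreated deletion strain was also set against the untreated parent. ARR1, YAP1 and CAD1 encode related bZIP transcription factors, Arr1 being the activator of the arsenite efflux genes, and RPN4 encodes the activator of proteasome genes.

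Glucose enters yeast by facilitated diffusion through Hxt proteins, and their genes are switched by the sugar itself. The sensors Snf3 and Rgt2 lead to the loss of Mth1 and Std1, which lifts repression by Rgt1, while Mig1 and Mig2 repress the high-affinity carriers when glucose is plentiful. HXT1 and HXT3 encode low-affinity carriers that are induced by glucose, HXT2 and HXT4 carriers of higher affinity that are induced when glucose is low, HXT6 and HXT7 nearly identical high-affinity carriers, and HXT5 a carrier of slow-growing and stressed cells. HXT9 and HXT11 are nearly identical to each other, have been linked to drug resistance through Pdr1 and Pdr3, and are little expressed in normal growth. HXT12 closely resembles them and is annotated as a pseudogene. Hexose permeases are also among the known routes of arsenite into yeast.

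Every value below is a log2 ratio of the RNA on an array. It is the ratio of AsIII-treated over untreated cells or of deletion strain over parent, so 1 is a 2-fold increase and -1 a 2-fold decrease, and levels cannot be compared between genes. HXT3, HXT4, HXT5, HXT6, HXT9 and HXT12 had 2 Agilent probes, which were averaged, and the other members and all members on the cDNA arrays had 1. The 2 probes of a gene differed on 1 array by a median of 0.04 (HXT5) to 0.14 (HXT9), and by at most 0.67 (HXT9). Near-identical genes can bind the same probe, so HXT6 and HXT7, and likewise HXT9, HXT11 and HXT12, cannot be taken as separate measurements on either kind of array. Probe sequences were not used here.

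Each culture pair was measured on 4 cDNA arrays and each strain comparison on 2 Agilent arrays (4 for the treated parent), with the dyes exchanged between arrays. Averaging the arrays of each culture pair or dye-exchanged pair gave 1 replicate, and limma tested each condition over all genes with Benjamini-Hochberg adjustment at 0.05. A gene that passed is said to have risen or fallen. The spread came only from the 2 culture pairs at 1 mM on the cDNA arrays and the 2 dye-exchanged parent pairs on the Agilent arrays, and the single pairs were assumed to vary alike. On the Agilent arrays the estimated spread was the same for all genes, the standard error (SE) being 0.12 for the parent, 0.17 for each deletion strain and 0.21 for a difference between strains. Nothing says that the parent pairs came from separate cultures, so these p-values may measure technical spread, and many genes passed. Median log2 ratios of the members are therefore read beside those of all genes. In the untreated deletion strains the deleted gene was at -3.60 and -0.95 for ARR1, -4.46 and -3.62 for RPN4, -4.66 and -4.05 for YAP1, and -5.57 and -3.94 for CAD1 on the 2 arrays each.

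**Figure D1:**
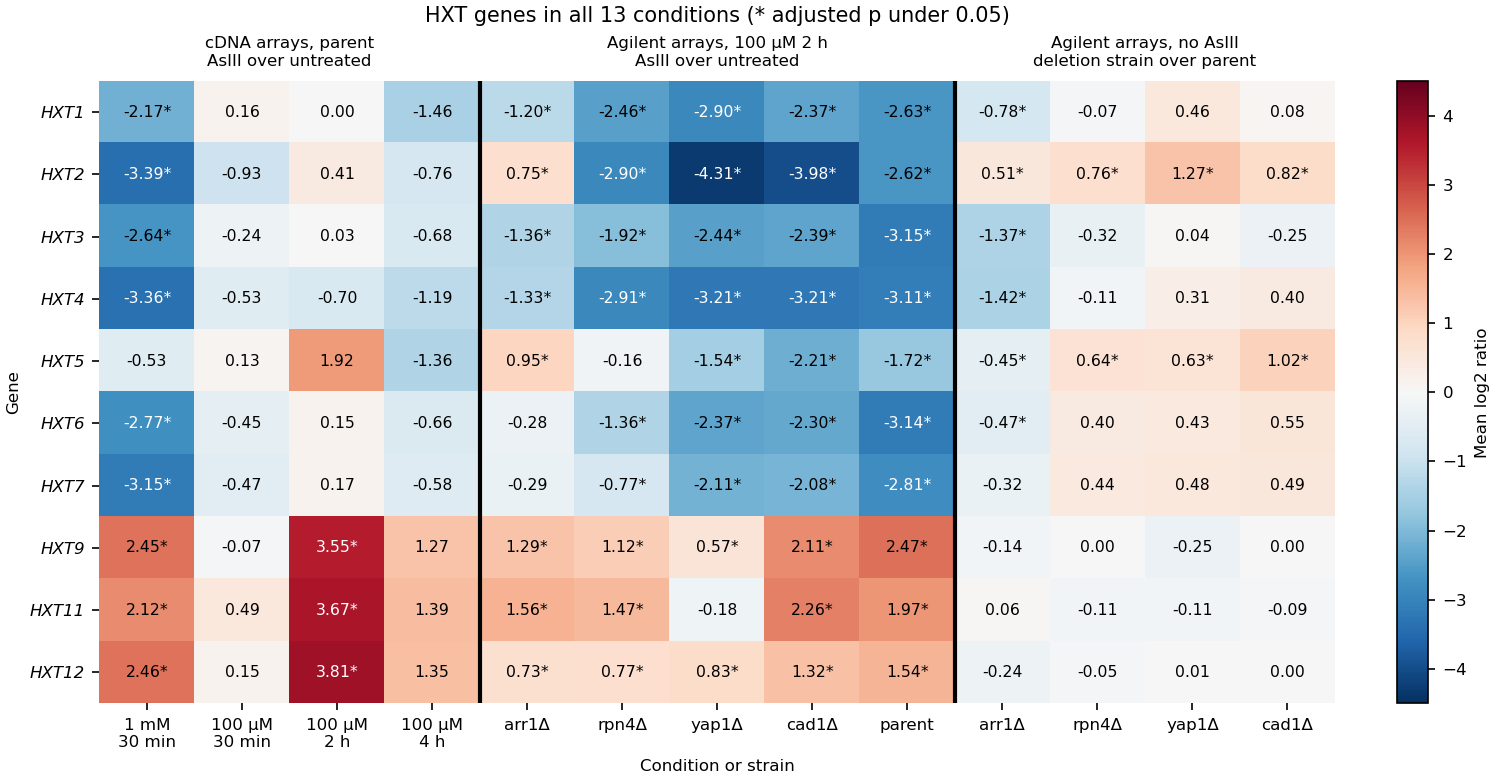
Mean log2 ratio of the 10 HXT genes (rows) in the 13 conditions (columns), with red for higher and blue for lower, and an asterisk for an adjusted p under 0.05 over all genes. HXT1 to HXT4, HXT6 and HXT7 were at -2.17 to -3.39 at 1 mM for 30 min, and HXT9, HXT11 and HXT12 were at 2.12 to 2.46.

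The 10 members split in opposite directions in cells given 1 mM AsIII for 30 min. HXT1, HXT2, HXT3, HXT4, HXT6 and HXT7 fell, HXT9, HXT11 and HXT12 rose, and HXT5 did not pass. Thus 6 of 10 members fell, beside 7.09% of all genes, and 3 of 10 rose, beside 9.69% of all genes. The members' median log2 ratio was -2.41, that of all 5540 genes 0.02. Because the members were chosen with earlier results of these data known, these shares describe the list and test nothing about the family. The 8 further transporter genes of the family, described below, had a median of -0.36 here, and none passed.

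The high-affinity carriers were among the most reduced. HXT2 lay between -4.51 and -2.74 on the 8 arrays with a median of -3.24, its mean log2 ratio was -3.39 (SE 0.23, n = 2 culture pairs, limma adjusted p = 0.00438), a 10.5-fold decrease, and no array came near 0. HXT4 lay between -4.37 and -2.16, with a median of -3.51 and a mean of -3.36 (SE 0.24, adjusted p = 0.00438). HXT7 lay between -4.40 and -2.36 (median -3.00, mean -3.15) and its close relative HXT6 between -3.81 and -1.82 (median -2.74, mean -2.77). Both were below 0 on all 8 arrays.

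The low-affinity carriers fell less evenly between the cultures. HXT3 lay between -3.61 and -1.81 with a median of -2.66, and averaged -3.23 in the first culture pair and -2.05 in the second. HXT1 lay between -3.59 and -0.77 with a median of -2.33, and its culture pairs averaged -2.90 and -1.44, so that its mean of -2.17 (SE 0.38, adjusted p = 0.022) shifts by over 1.5-fold on leaving out either pair. With Cy5 alone HXT1 was at -1.57 and did not pass. HXT5 was at -1.02 in the first culture pair and at -0.04 in the second. Its lowest array was at -1.52, its median -0.35 and its highest 0.29, and its mean of -0.53 (SE 0.29) had an adjusted p of 0.249.

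HXT9 lay between 1.40 and 3.44 on the 8 arrays, with a median of 2.57 and a mean of 2.45 (SE 0.34, adjusted p = 0.0135). Its culture pairs averaged 3.09 and 1.81. HXT12 lay between 1.81 and 3.18 (median 2.32, mean 2.46, SE 0.24, adjusted p = 0.0066). HXT11 lay between 0.22 and 3.82, its median was 2.12, and its culture pairs averaged 2.77 and 1.47 around a mean of 2.12 (SE 0.35, adjusted p = 0.0191). All 3 genes were above 0 on all 8 arrays.

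**Figure D2:**
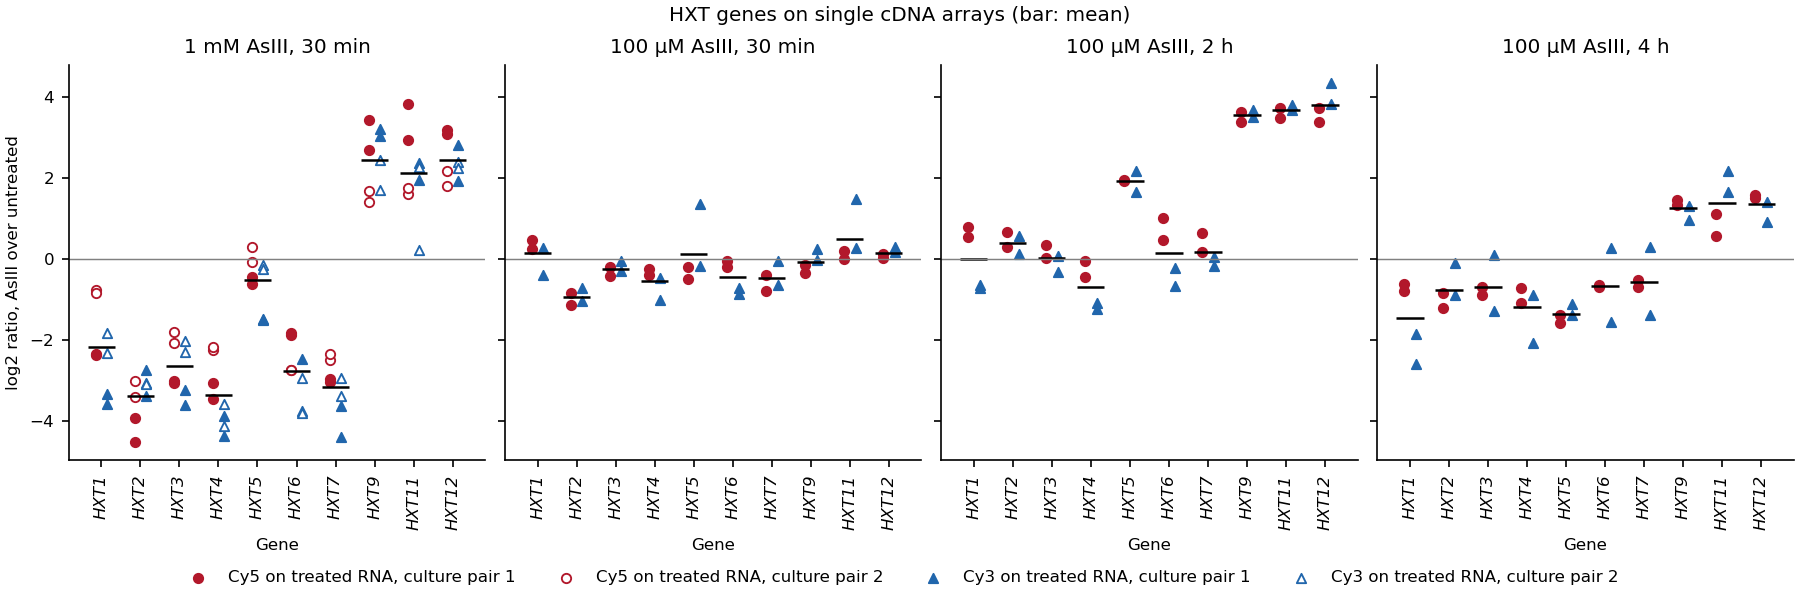
Log2 ratio (AsIII over untreated) of each HXT gene on every cDNA array, in a panel for each condition, with circles for Cy5 and triangles for Cy3 on the treated RNA, filled for the first and open for the second culture pair, and a bar at the mean. At 100 μM for 2 h HXT9, HXT11 and HXT12 lie between 3.37 and 4.34 while HXT1 to HXT4, HXT6 and HXT7 have means of -0.70 to 0.41.

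At 100 μM the values of HXT9, HXT11 and HXT12 and those of the other members took different courses over time. At 30 min the mean of every member lay within 1 log2 unit of 0. HXT2 had the lowest mean, -0.93 (SE 0.32), with -1.04, -0.71, -0.83 and -1.12 on the 4 arrays, all below 0. HXT9 was at -0.03, 0.24, -0.15 and -0.34, and HXT12 at 0.17, 0.30, 0.13 and 0.02. HXT11 had 1 array at 1.48 and the others at 0.27, 0.01 and 0.20, and HXT5 had the same array at 1.37 and the others at -0.16, -0.48 and -0.19. On that array, with Cy3 on the treated RNA, both genes were far above their other values. None of the members passed (adjusted p = 0.999 for each), and limma called 0% of all genes in either direction, with 146 genes and 1 member, HXT2, at an unadjusted p under 0.05.

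At 2 h HXT9, HXT11 and HXT12 rose by about the same amount. HXT12 was at 4.34, 3.82, 3.37 and 3.72 (mean 3.81, SE 0.34, adjusted p = 0.0154). HXT11 was at 3.81, 3.67, 3.49 and 3.72 (mean 3.67, SE 0.49, adjusted p = 0.0287), and HXT9 at 3.68, 3.52, 3.37 and 3.64 (mean 3.55, SE 0.48, adjusted p = 0.0309). The values of the 3 genes overlapped on the 4 arrays. They were 3 of 10 members, beside 3.75% of all genes that rose, and no member was among the 2.18% that fell.

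HXT5, the carrier of stressed and slow-growing cells, was at 2.17, 1.65, 1.92 and 1.94 at 2 h. All 4 arrays were high and close together, but the mean of 1.92 (SE 0.41) stayed outside the threshold with an adjusted p of 0.0587. The other 6 members did not pass either. HXT2 (mean 0.41), HXT7 (0.17), HXT6 (0.15) and HXT3 (0.03) lay near 0. HXT4 was at -1.23, -1.09, -0.05 and -0.44, and HXT1 at -0.64, -0.70, 0.80 and 0.54. In both genes the 2 lower values came from the arrays with Cy3 on the treated RNA, and HXT1, with a mean of 0.00, was 1.34 higher with Cy5 than with Cy3.

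At 4 h the means had the signs seen at 1 mM, and were smaller except for HXT5. HXT9 was at 0.96, 1.32, 1.33 and 1.47, HXT11 at 1.67, 2.18, 1.12 and 0.57, and HXT12 at 1.41, 0.92, 1.58 and 1.51. HXT5 was at -1.11, -1.37, -1.39 and -1.57, below 0 on every array, where the 2 h arrays of the same gene had all been above 1. HXT1 was at -1.85, -2.60, -0.78 and -0.62, and HXT4 at -0.88, -2.07, -1.10 and -0.70. The means of HXT2, HXT3, HXT6 and HXT7 lay between -0.76 and -0.58. The smallest adjusted p of a member was 0.251, for HXT12, with 6 members at an unadjusted p under 0.05, and 0.0542% of all genes were called.

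The differences between doses and times were tested in the same fit. At 30 min the 1 mM minus the 100 μM response was -2.82 to -2.31 for HXT1, HXT2, HXT3, HXT4, HXT6 and HXT7, and 1.63 to 2.52 for HXT9, HXT11 and HXT12. The 2 h minus the 30 min response was 3.62, 3.18 and 3.66 for HXT9, HXT11 and HXT12, and 1.79 for HXT5. The 4 h minus the 2 h response was -3.28 for HXT5 (SE 0.58, adjusted p = 0.0773) and -2.46 for HXT12 (SE 0.47, adjusted p = 0.0806). None of these passed, and none of the 3 differences had any called gene (0% of all genes each, with 791, 860 and 1221 genes and 9, 5 and 5 members at an unadjusted p under 0.05). A single culture pair at each time of 100 μM, 2 culture pairs at 1 mM and 1 residual degree of freedom stood behind them. With each array counted as a replicate and the array number as a block, 9, 5 and 6 members passed in these differences. Of all 5540 genes, 1012, 1026 and 1155 then passed upward and 932, 865 and 1306 downward.

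The Agilent arrays measured the parent at 100 μM for 2 h again, on total RNA in place of the poly(A) RNA of the cDNA arrays. Here HXT1 to HXT7 fell and HXT9, HXT11 and HXT12 rose. All 10 members passed, as did 42.7% of all genes downward and 34.7% upward, so size separates the members more than the test does. All 7 decreases and all 3 increases were 2-fold or more, beside 13.8% of all genes at least 2-fold lower and 11.5% at least 2-fold higher. The members' median was -2.63, that of all genes -0.10.

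HXT3 was at -3.09, -3.40, -2.77 and -3.36 (mean -3.15, SE 0.12, n = 2 dye-exchanged pairs, limma adjusted p = 3.4e-138), an 8.89-fold decrease. HXT6 was at -2.76, -3.95, -2.35 and -3.49, and HXT7 at -2.18, -4.01, -2.01 and -3.02. In both, the values with Cy3 on the treated RNA were lower than those with Cy5. HXT4 averaged -3.11, HXT7 -2.81, HXT1 -2.63, HXT2 -2.62 and HXT5, the least reduced, -1.72. No array of these 7 genes was above -1.57.

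HXT9 was at 2.50, 2.46, 2.45 and 2.46, nearly the same on all 4 arrays (mean 2.47, a 5.53-fold increase). HXT11 was at 1.97, 1.65, 1.97 and 2.30, and HXT12 at 1.65, 1.39, 1.47 and 1.65. HXT9 lay above both on every array.

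At the same stated dose and time, HXT9, HXT11 and HXT12 were thus high on both platforms, at 3.55 to 3.81 on the cDNA and 1.54 to 2.47 on the Agilent arrays. HXT1 to HXT4, HXT6 and HXT7 were at -0.70 to 0.41 on the cDNA arrays and at -3.15 to -2.62 on the Agilent arrays, and HXT5 was at 1.92 and -1.72, of opposite sign. The cDNA values of HXT1 to HXT4, HXT6 and HXT7 on 1 mM AsIII for 30 min, -3.39 to -2.17, lay nearer to the Agilent ones. Over the 5513 genes on both platforms, the Agilent parent response correlated with the cDNA response at 1 mM with r = 0.61 and with that at 100 μM for 2 h with r = 0.38. Both are correlations across genes, and genes are not independent of each other. Cultures, RNA preparation, probes and scale differed together between the platforms, so no test was made between them and their part in the difference cannot be told apart.

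The response of each deletion strain, from 1 dye-exchanged pair, was set against that of the parent. Whether a response needs the deleted transcription factor was not tested. These 4 comparisons share the parent arrays. In arr1Δ cells the response of 9 of the 10 members differed from the parent's. HXT2 and HXT5 rose with AsIII, HXT6 and HXT7 did not pass, and HXT1, HXT3 and HXT4 fell by less than in the parent. Of all genes, 6.13% were at least 2-fold lower and 5.57% at least 2-fold higher in arr1Δ cells, so the response of this strain was smaller over all genes as well.

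HXT2 was at 0.63 and 0.87 in arr1Δ cells, against -2.20, -2.28, -3.04 and -2.96 in the parent. The groups lay on opposite sides of 0 and differed by 3.38 (SE 0.21, limma adjusted p = 8.4e-54). HXT5 was at 0.87 and 1.03 in arr1Δ cells, against -1.63, -2.01, -1.65 and -1.57 in the parent, a difference of 2.67 (adjusted p = 5.2e-34). HXT6 was at -0.27 and -0.28 in arr1Δ cells, against -2.35 or below on the 4 parent arrays, and HXT7 at -0.26 and -0.32, against -2.01 or below. Neither gene passed in arr1Δ cells (adjusted p = 0.172 and 0.148), and their responses differed from the parent's by 2.86 and 2.51.

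HXT1, HXT3 and HXT4, all 3 still reduced, made up the rest. HXT3 was at -1.38 and -1.35 in arr1Δ cells and between -3.40 and -2.77 in the parent, HXT4 at -1.37 and -1.28 and between -3.59 and -2.76, and HXT1 at -1.29 and -1.11 and between -2.84 and -2.48. Their responses were weaker by 1.79, 1.79 and 1.43, and the groups did not overlap in any of them. Overlap was not counted over all genes, of which 28.6% differed from the parent upward and 25.5% downward past the threshold.

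Of the other set, HXT9 was at 1.06 and 1.51 in arr1Δ cells, against 2.45 to 2.50 in the parent, a difference of -1.18 (adjusted p = 1.4e-07). HXT12 was at 0.93 and 0.54, against 1.39 to 1.65, a difference of -0.81. HXT11 was at 1.12 and 2.01, overlapping the parent's 1.65 to 2.30, and its difference of -0.41 did not pass (adjusted p = 0.0888), though it passed with the arrays centred on their medians, with robust moderation and with Cy5 alone. In arr1Δ cells 5 members rose and 3 fell, beside 23.2% and 26.9% of all genes. HXT2 (0.63 with Cy5 alone) and HXT12 (0.54 with Cy3 alone) did not pass on 1 dye orientation. The difference from the parent was positive in 7 members and negative in 2, beside 28.6% and 25.5% of all genes, and at least 2-fold in 7 upward and 1 downward, beside 10.9% and 10.7%.

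**Figure D3:**
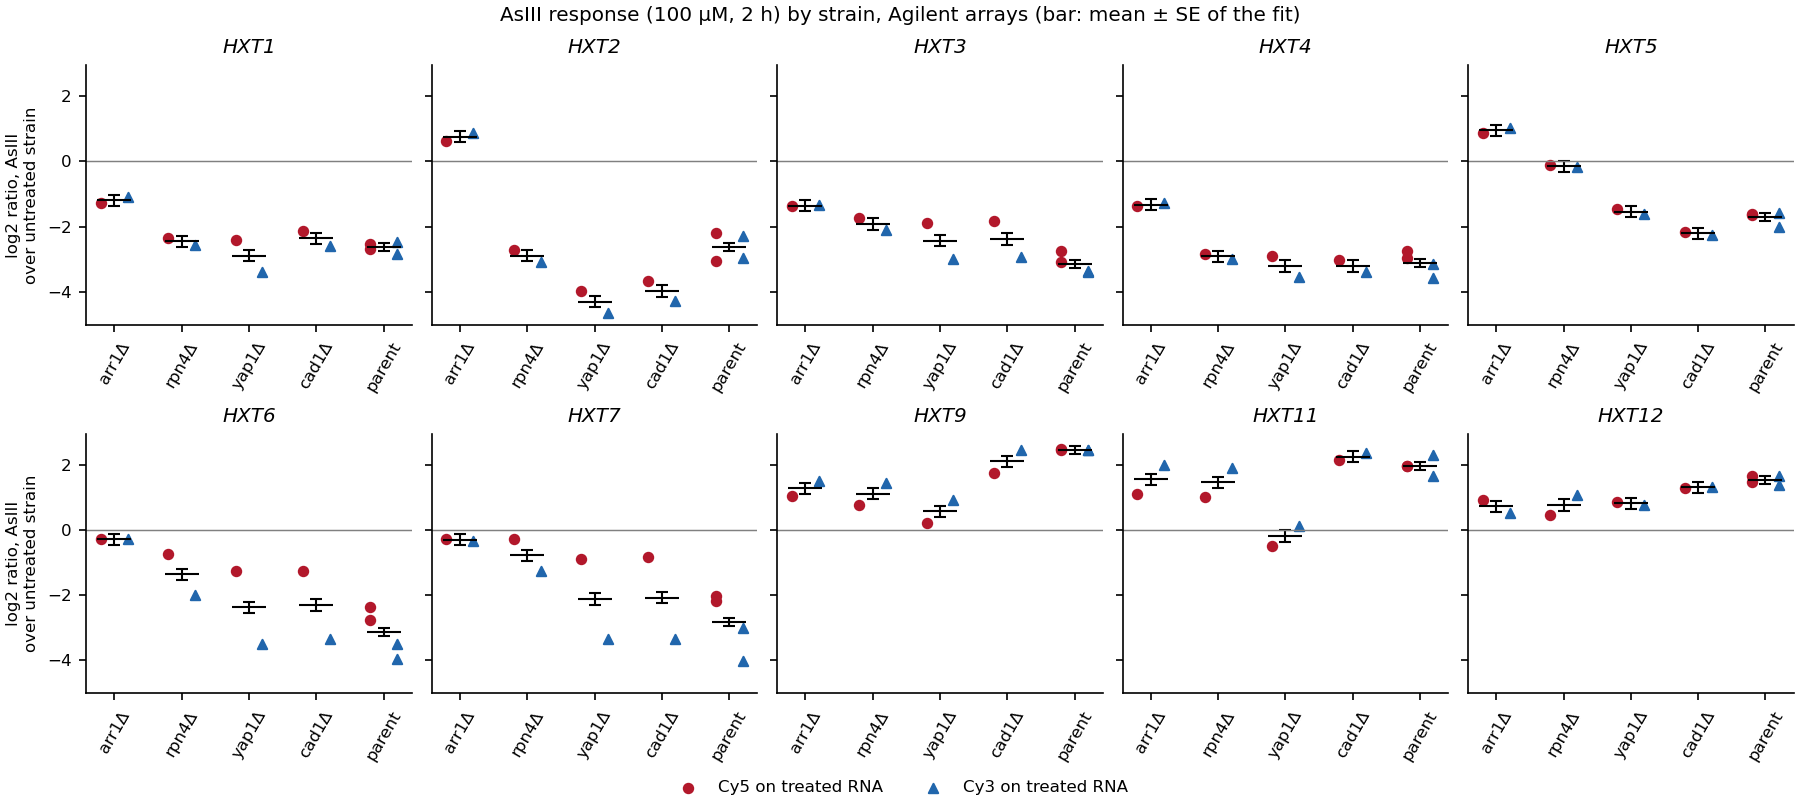
Log2 ratio after 100 μM AsIII for 2 h over the same untreated strain, in a panel for each HXT gene, for arr1Δ, rpn4Δ, yap1Δ, cad1Δ and the parent, with circles for Cy5 and triangles for Cy3 on the treated RNA, and a bar at the mean ± SE of the fit. HXT2 and HXT5 lie above 0 in arr1Δ and below it in the parent, and HXT11 lies at -0.47 and 0.12 in yap1Δ against 1.65 to 2.30 in the parent.

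Untreated arr1Δ cells already had less of several carriers than the untreated parent. HXT4 was at -1.13 and -1.71 (mean -1.42, SE 0.17, adjusted p = 2.3e-14), HXT3 at -1.22 and -1.52 (mean -1.37), and HXT1 at -0.58 and -0.98 (mean -0.78). HXT6 (-0.47) and HXT5 (-0.45) were slightly lower and HXT2 (0.51) slightly higher. HXT2 and HXT5 did not pass with either dye orientation alone, nor did HXT6 with Cy5 alone. These 5 decreases and 1 increase stood beside 11.5% and 11.8% of all genes. HXT7, HXT9, HXT11 and HXT12 lay between -0.32 and 0.06 and did not pass.

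When the untreated ratio of a strain to the parent and its AsIII ratio are added, the sum places treated cells of each strain on the scale of the untreated parent. This sum was chosen after the values had been seen, takes both untreated samples of a strain as equal, and is given without a test. On it, treated arr1Δ cells differed from treated parent cells by 0.42 for HXT3, 0.37 for HXT4 and 0.65 for HXT1 (SE 0.27 each). For HXT2 the difference was 3.89, for HXT6 2.39, for HXT5 2.21 and for HXT7 2.20. So HXT3 and HXT4, which differed from the parent in their response by 1.79, ended near the parent's treated level, and HXT2, HXT5, HXT6 and HXT7 ended well above it.

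**Figure D4:**
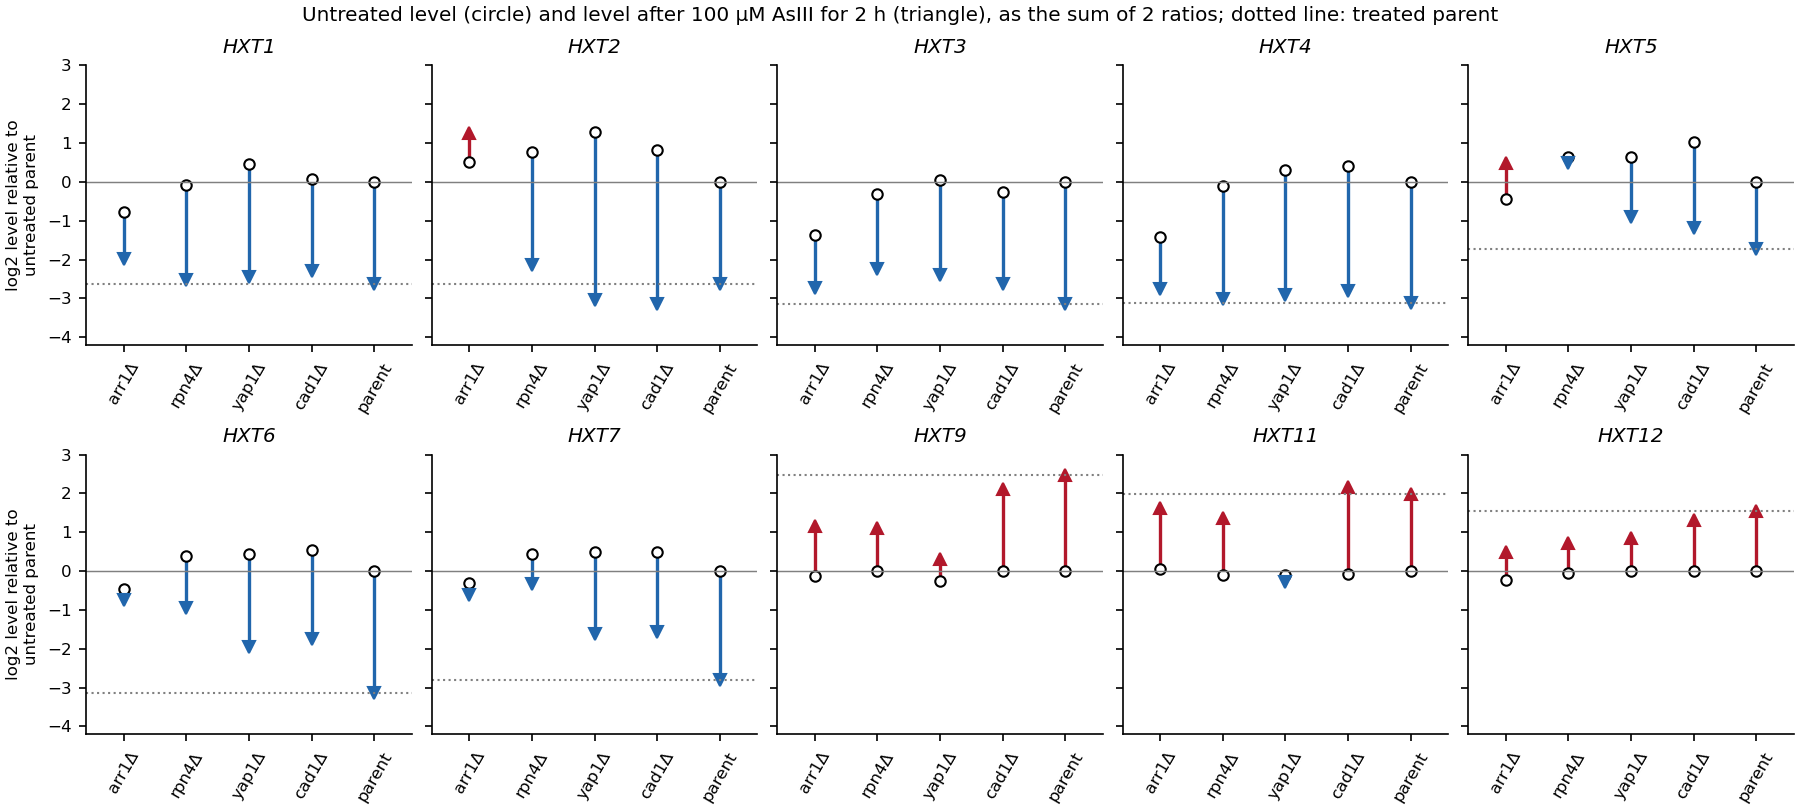
Log2 level relative to the untreated parent in a panel for each HXT gene, for arr1Δ, rpn4Δ, yap1Δ, cad1Δ and the parent, with a circle for untreated cells and a triangle for cells after 100 μM AsIII for 2 h (the sum of the untreated ratio and the AsIII ratio) and a dotted line at the treated parent. In arr1Δ HXT3 and HXT4 start at -1.37 and -1.42 and end near the dotted line, and HXT2 ends 3.89 above it.

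In rpn4Δ cells the response of 7 members differed from the parent's. Of all 5598 genes, 379 were at least 2-fold lower and 437 at least 2-fold higher in rpn4Δ cells. In the parent these were 775 and 644, so the response of rpn4Δ cells was smaller over all genes as well. HXT1, HXT2 and HXT4 had differences of 0.18, -0.28 and 0.20 (SE 0.21 each) that did not pass. HXT5 was at -0.13 and -0.19 in rpn4Δ cells, against -2.01 to -1.57 in the parent, a difference of 1.56 (adjusted p = 9.7e-12), and did not pass in rpn4Δ cells on their own (adjusted p = 0.455). HXT7 was at -0.28 (which did not pass with Cy5 alone) and -1.26, against -4.01 to -2.01 (difference 2.03, adjusted p = 1.8e-19), and HXT6 at -0.73 and -1.99, against -3.95 to -2.35 (difference 1.78). HXT3 was at -1.75 and -2.09, against -3.40 to -2.77 (difference 1.23). In none of these 4 genes did the arrays of the strains overlap. Here too overlap was not counted over all genes, of which 21.3% differed upward and 17.7% downward past the threshold.

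HXT9 was at 0.78 and 1.45 in rpn4Δ cells, against 2.45 to 2.50 in the parent, a difference of -1.35 (adjusted p = 5.0e-09). HXT12 differed by -0.77, and HXT11, whose arrays at 1.02 and 1.92 overlapped those of the parent, by -0.50 (adjusted p = 0.0461). With Cy3 alone these 2 differences were -0.43 and -0.05 and did not pass. In rpn4Δ cells 3 members rose and 6 fell, beside 24.4% and 29.9% of all genes. The difference was positive in 4 members and negative in 3, beside 21.3% and 17.7% of all genes. Untreated rpn4Δ cells had more HXT2 (1.05 and 0.47, mean 0.76) and HXT5 (0.89 and 0.38, mean 0.64) than the parent, 2 increases and no decrease beside 10.9% and 11.0% of all genes. On the sum of both ratios, treated rpn4Δ cells were above treated parent cells by 2.47 for HXT7, 2.20 for HXT5 and 2.18 for HXT6. The same sum was also above the treated parent in the other strains, by less in yap1Δ and cad1Δ. For HXT7, HXT5 and HXT6 it was higher by 1.17, 0.80 and 1.19 in yap1Δ cells. In cad1Δ cells it was higher by 1.22, 0.53 and 1.39 (SE 0.27 each).

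In yap1Δ cells the increase of HXT9 and HXT11 was reduced or lost. HXT11 was at -0.47 and 0.12 in yap1Δ cells, against 1.97, 1.65, 1.97 and 2.30 in the parent. The strains did not overlap and differed by -2.15 (SE 0.21, adjusted p = 2.8e-22). HXT9 was at 0.23 and 0.92, against 2.45 to 2.50, a difference of -1.89 (adjusted p = 2.7e-17), and still rose slightly (mean 0.57, adjusted p = 0.00168). HXT12 was at 0.88 and 0.78, against 1.39 to 1.65, a difference of -0.71 (adjusted p = 0.00995) that no longer passed with either dye orientation alone. With Cy5 alone HXT9 (0.23) did not pass in yap1Δ cells and HXT11 (-0.47) fell. The mean order of the 3 genes in yap1Δ cells, HXT12 at 0.83, HXT9 at 0.57 and HXT11 at -0.18, was the reverse of that in the parent for HXT12 against HXT11, where HXT11 averaged 1.97 and HXT12 1.54.

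HXT2 fell further without YAP1. It was at -3.97 and -4.65 in yap1Δ cells, against -3.04 to -2.20 in the parent, a mean of -4.31, a 19.8-fold decrease, and a difference of -1.69 (adjusted p = 8.8e-14). The parent pairs of HXT2 averaged -2.24 and -3.00, further apart than those of any other member. The SE was the same for all genes, so the p-values of HXT2 against the parent, in every strain, do not reflect this wider spread. Untreated yap1Δ cells had more HXT2 than the parent, at 1.47 and 1.07 (mean 1.27, adjusted p = 7.2e-11), and on the sum of both ratios the treated strains differed by -0.42 (SE 0.27). HXT1, HXT4 and HXT5 had differences of -0.27, -0.10 and 0.17 that did not pass. HXT3, HXT6 and HXT7 had small positive differences of 0.71, 0.77 and 0.69 that passed (adjusted p = 0.00954, 0.00426 and 0.012).

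These last 3 differences rested on 1 dye orientation. With Cy5 on the treated RNA, HXT7 was at -0.89 in yap1Δ cells and at -2.18 and -2.01 in the parent. With Cy3 it was at -3.33 and at -4.01 and -3.02, so the strains overlapped, and the difference in that orientation was 0.18 for HXT7, 0.24 for HXT6 and 0.39 for HXT3, none of which passed. In yap1Δ cells 2 members rose and 7 fell, beside 30.5% and 36.0% of all genes. The difference was positive in 3 members and negative in 4, beside 5.39% and 7.36% of all genes, and 3 members (HXT2, HXT9 and HXT11) were lower by 2-fold or more, and none higher, beside 3.29% and 0.447% of all genes.

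In cad1Δ cells the response of 4 members differed from the parent's, and HXT9, HXT11 and HXT12 were not among them. HXT9 was at 1.76 and 2.47, HXT11 at 2.15 and 2.36 and HXT12 at 1.30 and 1.34, and their differences from the parent of -0.36, 0.28 and -0.22 (SE 0.21 each) did not pass. HXT2 was at -3.67 and -4.28 in cad1Δ cells, against -3.04 to -2.20 in the parent, a difference of -1.36 (adjusted p = 4.1e-08). Untreated cad1Δ cells had more HXT2 (1.06 and 0.58, mean 0.82) and more HXT5 (1.33 and 0.71, mean 1.02), and on the sum of both ratios HXT2 differed from the treated parent by -0.54 (SE 0.27).

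HXT3, HXT6 and HXT7 again had differences of 0.77, 0.84 and 0.73, which shrank to 0.45, 0.39 and 0.19 with Cy3 on the treated RNA. With either dye orientation alone the differences of HXT2, HXT3 and HXT6 did not pass, nor did that of HXT7 with Cy3. All 10 members passed in cad1Δ cells on AsIII, 3 upward and 7 downward, beside 31.9% and 36.0% of all genes, and the difference from the parent was positive in 3 and negative in 1, beside 1.75% and 2.48% of all genes. Untreated, 2 members were higher and none lower in cad1Δ cells, beside 1.71% and 0.965% of all genes, and likewise 2 and none in yap1Δ cells, beside 2.59% and 1.29%.

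HXT2 was thus higher in each of the 4 untreated deletion strains than in the parent, at 0.51 in arr1Δ, 0.76 in rpn4Δ, 1.27 in yap1Δ and 0.82 in cad1Δ, and above 0 on all 8 arrays. It did not pass with Cy3 alone in arr1Δ, rpn4Δ and cad1Δ, nor with Cy5 alone in arr1Δ and cad1Δ. HXT5 was higher in rpn4Δ, yap1Δ and cad1Δ (0.64, 0.63 and 1.02) and lower in arr1Δ (-0.45). With Cy3 alone HXT5 did not pass in any of these strains. These comparisons share the untreated parent. The dye orientation also moved several members in these arrays: HXT7 was at 1.03 with Cy5 and at -0.07 with Cy3 on the RNA of yap1Δ, at 1.01 and -0.02 in cad1Δ, and at 1.01 and -0.14 in rpn4Δ, and did not pass in any of them. HXT9 moved the other way, with -0.70 and 0.19 in yap1Δ, -0.51 and 0.51 in cad1Δ, and -0.55 and 0.54 in rpn4Δ. The means over both orientations were used throughout.

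The 8 further transporter genes of the family, HXT8, HXT10, HXT13, HXT14, HXT15, HXT16, HXT17 and the galactose permease gene GAL2, are little expressed on glucose. None passed on the cDNA arrays in any condition. In the Agilent parent 7 of 8 rose, beside 34.7% of all genes, with a median of 1.40 against -0.10 for all genes. GAL2 was at 2.42, HXT16 at 2.15, HXT15 at 1.90, HXT13 at 1.67, HXT17 at 1.13, HXT8 at 0.65 and HXT10 at 0.51, while HXT14 fell to -0.34. HXT13, HXT15, HXT16 and HXT17 are close relatives that may share signal. At 100 μM for 2 h on the cDNA arrays the same genes were at -0.19 to 0.39, apart from HXT10 at -1.002. In arr1Δ cells only GAL2 (1.18), HXT14 (0.61) and HXT16 (0.42) rose, and 6 of the 8 responses were below the parent's, by 0.65 (HXT8) to 1.73 (HXT16), and 1, HXT14, above it by 0.94, beside 25.5% and 28.6% of all genes. In yap1Δ cells none of the 8 differed from the parent past the threshold, in cad1Δ cells GAL2 did (difference -0.97), and in rpn4Δ cells HXT13, HXT15, HXT16 and HXT17 had weaker increases, by 0.69 to 1.19, beside 17.7% of all genes.

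Of 9 listed genes of the glucose-sensing pathway, 5 fell and 2 rose in the Agilent parent (median -0.33), beside 42.7% of all genes that fell and 34.7% that rose, so these counts do not set the list apart. MTH1, which encodes the corepressor of HXT genes, fell to -2.52, RGT1 to -1.56, the casein kinase gene YCK1 to -0.999 and the sensor gene SNF3 to -0.73. STD1, the paralogue of MTH1, was at 0.11 and did not pass, and HXK2 was at 0.33. In arr1Δ cells MTH1 was at 0.20, a difference from the parent of 2.72, and RGT1 at 0.04, a difference of 1.59. In rpn4Δ cells MTH1 was at -1.32 and RGT1 at -0.47, in yap1Δ cells at -2.38 and -1.11, and in cad1Δ cells at -2.33 and -1.67. On the cDNA arrays MTH1 fell to -1.53 at 1 mM, the only 1 of the 9 to pass there, and at 100 μM none passed.

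Of 12 genes of the Snf1 kinase and Mig repressor branch, 7 fell and 1 rose in the Agilent parent (median -0.75), beside the same 42.7% and 34.7% of all genes and their median of -0.10. MIG2 was at -3.01, SIP2, a subunit gene of the Snf1 kinase, at -1.84, MIG3 at -1.81 and MIG1 at -1.64. In arr1Δ cells MIG1 was at 0.42, SIP2 at -0.10, MIG3 at -0.62 and MIG2 at -1.23, with differences from the parent of 2.06, 1.74, 1.19 and 1.79. In yap1Δ cells none of the 12 differed from the parent past the threshold. On the cDNA arrays SIP2 (-1.74), MIG1 (-1.37) and GAL83 (-0.90) fell at 1 mM. Of 15 glucose-repressed genes, 4 rose and 8 fell in the Agilent parent, near the shares of all genes (34.7% and 42.7%), led by GLK1 at -2.53 and HXK1 at -1.87, which encode enzymes that phosphorylate glucose, CAT8 at -1.37 and PCK1 at 1.30. Of 6 genes of disaccharide uptake and use, 5 fell and none rose, beside 42.7% and 34.7% of all genes, led by MAL31 at -1.80 and MAL11 at -1.75.

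HXT9 and HXT11 have been placed among the targets of Pdr1 and Pdr3, and 13 genes of that group were examined beside them. In the Agilent parent 6 rose and 6 fell (median 0.08), near the 34.7% and 42.7% of all genes, PDR16 reaching 1.72, PDR15 -1.52, TPO1 1.15 and TPO4 -1.08. The pump genes PDR5 and SNQ2 rose to 0.48 and 0.57, while PDR1 was at 0.28 and PDR3 at 0.08. In yap1Δ cells SNQ2 was at -0.53 and PDR5 at -0.49, differences from the parent of -1.11 and -0.96 that both passed, and TPO4 was at -0.06, a difference of 1.02 that passed upward. The median difference of the 13 genes was 0.20, that of all genes 0.07. At 1 mM on the cDNA arrays RTA1 (2.97), PDR16 (2.80), TPO1 (2.10) and SNQ2 (1.17) rose, and at 100 μM for 2 h RTA1 (2.44) did.

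Over the 13 condition means the members fell into 2 blocks. Pearson's r was 0.73 to 0.98 among HXT1 to HXT7, highest for HXT6 with HXT7, 0.90 to 0.96 among HXT9, HXT11 and HXT12, and -0.51 to 0.04 between the blocks. The conditions share parent samples and near-identical genes may share signal, so these values describe the arrays and carry no p. Outside the family, the genes most like HXT6 and HXT7 included TSL1, a subunit gene of trehalose synthase (r = 0.98 and 0.97), and ISF1. The genes most like HXT3 and HXT4 included GLG1, which primes glycogen (r = 0.94 and 0.97), those most like HXT3 also ZRC1 and RGI1, and those most like HXT1 and HXT4 the eisosome gene LSP1 (r = 0.96 and 0.97). HXT5 was closest to ATH1, the acid trehalase gene, SDH4 and YET1 (r = 0.97, 0.97 and 0.96), and HXT2 to NDE2, a mitochondrial NADH dehydrogenase gene, AQY3 and RSM7 (r = 0.97, 0.97 and 0.96). HXT1 was also close to AIM19 and STP3, HXT4 to MRK1, HXT6 to RGI1 and HXT7 to MRPS12.

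HXT9 had its 3 most similar genes in 1 family. They were IMA4, IMA3 and IMA2 (r = 0.97, 0.96 and 0.95), which encode isomaltases, and IMA4 was also among the 3 most similar to HXT11 (r = 0.95) and to HXT12 (r = 0.91). In the gene order of RefSeq (assembly R64) IMA4 is the neighbour of HXT9, IMA2 that of HXT11, and IMA3 is separated from HXT12 by 1 annotated gene, YIL171W. IMA2, IMA3 and IMA4 were at 3.19, 3.90 and 4.00 at 1 mM, at -0.17, -0.09 and -0.13 at 100 μM for 30 min, at 3.88, 4.14 and 4.27 at 2 h, and at 1.12, 1.41 and 1.73 at 4 h. They rose at 1 mM and at 2 h and did not pass at the other times, as with HXT9, HXT11 and HXT12.

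In yap1Δ cells IMA2, IMA3 and IMA4 were at -0.13, -0.15 and -0.14, against 3.20, 3.05 and 3.05 in the parent, differences of -3.32, -3.20 and -3.19 (SE 0.21 each). The 3 genes are closely related and may share signal as well. In arr1Δ cells they were at 1.64, 1.18 and 1.44 and in rpn4Δ cells at 2.33, 2.08 and 1.96, each below the parent past the threshold, and in cad1Δ cells at 3.19, 2.88 and 2.85, with no difference that passed. The other genes most like HXT11 were CCP1, the cytochrome c peroxidase gene (r = 0.98), and YNL208W, and those most like HXT12 were BTT1 and ARA2. CCP1 was at -0.76 in yap1Δ cells, against 1.24 in the parent.

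**Figure D5:**
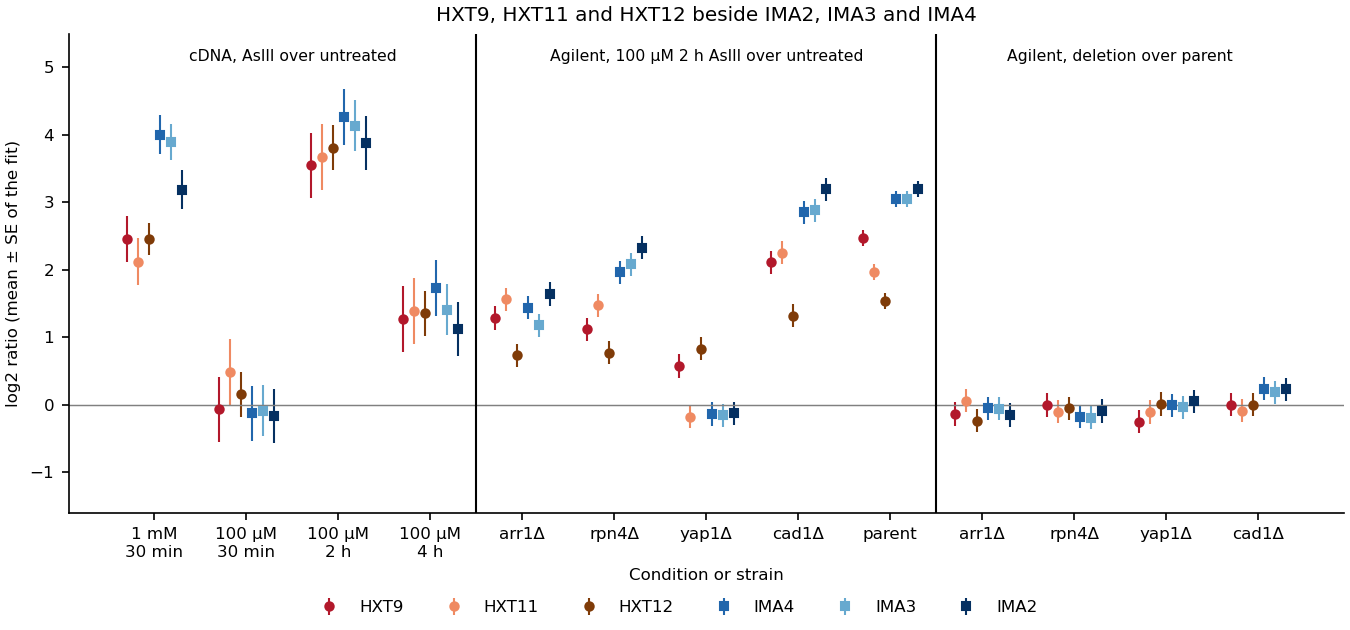
Mean log2 ratio ± SE of the fit of HXT9, HXT11 and HXT12 (circles) and of IMA2, IMA3 and IMA4 (squares) in the 13 conditions. All 6 genes lie at 3.55 to 4.27 at 100 μM for 2 h on the cDNA arrays, and in yap1Δ the IMA genes and HXT11 lie at -0.13 to -0.18 while HXT9 and HXT12 lie at 0.57 and 0.83.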

How the data were processed

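Both kinds of array compared 2 dye-labelled RNA samples, and only ratios were used. The cDNA files hold log2 ratios as the authors deposited them, with unstated normalization. The Agilent files hold log10 ratios, which the authors made with Feature Extraction and Rosetta Resolver and limited to 100-fold (no member value reached it). Both sets already had treated RNA over untreated, or deletion strain over parent. Agilent values were converted to log2. Probes were matched by gene symbol and probes of a gene averaged. Of the features, 1143 of 6720 (cDNA) and 1605 of 10807 (Agilent) had no gene name.

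Averaging arrays left 5 (cDNA) and 10 (Agilent) replicates, and limma 3.58.1 in R 4.3.3 fitted 4 and 9 condition means with moderated tests, 1 residual degree of freedom each, and contrasts for differences. The number of arrays limits the precision. Python 3.11.15 did the rest, and the fit was checked on simulated data. Of each list up to 4 genes with the largest change are named, with the regulators. For each member the 3 genes outside the family with the highest r are named. Members and lists were chosen with earlier results of these data known. Alternatives were centring arrays on their medians, counting each array as a replicate with a block, single dye orientations, robust moderation, probe medians, dropping values at the limit, another pairing of the parent arrays, a rule of 2-fold change with an unadjusted p under 0.001, and leaving out replicates. Gene order came from RefSeq assembly R64.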

Additional observations from a re-analysis of the deposited data

Results flagged for a closer look

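No array of a member passed Dixon's test in the 5 conditions with 4 or 8 arrays, although at 100 μM for 30 min HXT11 (1.48) and HXT5 (1.37) each had 1 array far above the other 3. The responses of the deletion strains and the parent differed past the threshold for 27 combinations of member and strain, all tested as differences in the limma fit and all resting on the same parent arrays.

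In arr1Δ cells these were HXT2 (3.38), HXT6 (2.86), HXT5 (2.67), HXT7 (2.51), HXT3 (1.79), HXT4 (1.79), HXT1 (1.43), HXT12 (-0.81) and HXT9 (-1.18). In rpn4Δ cells they were HXT7 (2.03), HXT6 (1.78), HXT5 (1.56), HXT3 (1.23), HXT11 (-0.50), HXT12 (-0.77) and HXT9 (-1.35). In yap1Δ cells they were HXT6 (0.77), HXT3 (0.71), HXT7 (0.69), HXT12 (-0.71), HXT2 (-1.69), HXT9 (-1.89) and HXT11 (-2.15). In cad1Δ cells they were HXT6 (0.84), HXT3 (0.77), HXT7 (0.73) and HXT2 (-1.36).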

How the results depend on the processing

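No member that passed changed its direction under any alternative run. Probe medians and dropping values at the limit changed no call of a member. Another run took each array as a replicate, with a replicate block. At 100 μM for 30 min, 2 h and 4 h, 1, 5 and 8 members passed in it (0, 3 and 0 otherwise). Of all genes, 78, 1321 and 861 then passed upward and 46, 1438 and 835 downward. In the differences between doses and times 9, 5 and 6 members passed (0 each). There 1012, 1026 and 1155 of all genes passed upward and 932, 865 and 1306 downward. In the difference of cad1Δ from the parent 2 members passed (4), beside 191 of all genes upward and 171 downward. Arrays of 1 culture pair are not separate cultures. The block was the array number on the cDNA arrays, and each number had the same dye on the treated RNA in every group. On the Agilent arrays the block was the dye orientation. The block thus also took out a dye effect shared by the groups of a platform. With 2-fold change and an unadjusted p under 0.001 in place of the adjusted p, 1 member (HXT4) passed in the difference between doses, 1 (HXT12) in that between 2 h and 30 min, and 5 in treated arr1Δ cells (8), with 1, 1, 0 and 2 in untreated yap1Δ, cad1Δ, rpn4Δ and arr1Δ cells (2, 2, 2 and 6), and 3 and 1 in the differences of yap1Δ and cad1Δ from the parent (7 and 4). This rule was not counted over all genes. At least 2-fold change alone held for 312 of them upward and 343 downward in treated arr1Δ cells. In untreated yap1Δ, cad1Δ, rpn4Δ and arr1Δ cells it held for 15, 20, 193 and 140 upward and 10, 4, 57 and 25 downward. In the differences of yap1Δ and cad1Δ it held for 25 and 14 upward and 184 and 38 downward. Between doses and between 2 h and 30 min it held for 514 and 578 upward and 339 and 514 downward.

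Calls in untreated strains and the smaller differences moved with the dye. With Cy5 alone 8 members passed in untreated yap1Δ, 5 in rpn4Δ and 3 in arr1Δ cells, and 1 in the difference of cad1Δ from the parent. Of all 5598 genes, 946, 706 and 910 then passed upward in these untreated strains and 1107, 722 and 951 downward. In that difference 13 of all genes passed upward and 10 downward. With Cy3 alone these were 1 in untreated yap1Δ, 0 in cad1Δ and 1 in rpn4Δ cells, with 3 and 0 in the differences of yap1Δ and cad1Δ. Of all genes, 240, 19 and 405 then passed upward in these untreated strains and 91, 9 and 311 downward. In these differences 45 and 2 of all genes passed upward and 210 and 5 downward. Robust moderation called 4 members in each of untreated yap1Δ, cad1Δ and rpn4Δ cells, and the other pairing of the parent arrays 4 in untreated rpn4Δ cells. Of all genes, robust moderation called 232, 132 and 747 upward and 122, 82 and 814 downward in these strains. That pairing called 885 of all genes upward and 995 downward in untreated rpn4Δ cells. The cause of these shifts was not tested. Leaving out either culture pair at 1 mM moved HXT1, HXT3, HXT9 and HXT11 by over 1.5-fold there, to the averages of the pairs given above, all of the same sign. Leaving out either parent pair moved no member by that much, and leaving out a pair leaves no residual degree of freedom, so these values have no test. Signal over background was not used here.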
